A study of Caenorhabditis elegans with 4 samples.

Results

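The X chromosome of Caenorhabditis elegans embryos carried 338 binding sites of GEI-11, out of 1539 in the whole genome, in a ChIP-seq experiment, which sequences the DNA fragments recovered with a tagged protein. A site here is a record on X in the combined peak list deposited by the authors, with positions on genome build WS220, and each record was counted as deposited. The 338 sites run from X:353168-353567 to X:17610306-17610705 but are unevenly spread. A dense stretch lies towards the right end, and long empty intervals lie in the left and middle parts. The embryos came from hermaphrodites of strain OP179, grown at 20 °C. This strain carries the mutation unc-119(ed3) on chromosome III and the transgene wgIs179, which holds a rescuing copy of unc-119 and gei-11 fused to TY1, EGFP and 3xFLAG tags. The transgene was introduced by particle bombardment, and the labels do not say what became of the untagged gei-11 gene. Chromatin from this strain was precipitated with antibodies against GFP in 2 ChIP libraries. The 2 input DNA libraries came from the same strain and stage, and input entered no comparison here. The lists give no read counts and the depth behind a site is therefore unknown. Whether both numbered replicates were grown as separate cultures is not stated, and their agreement may be technical.

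GEI-11, also named SNPC-4, contains Myb-type DNA-binding repeats and belongs to the small nuclear RNA activating complex. That complex recognises promoters of small noncoding RNA genes, among them the genes of spliceosomal snRNAs and of the spliced-leader RNA, and in the worm GEI-11 also acts at piRNA genes. Small noncoding RNA genes are spread unevenly over the worm's chromosomes. In the RefSeq gene table of assembly WBcel235, X holds 2730 of 19971 protein-coding genes (13.7%), 3 of 129 snRNA genes and 162 of 15363 piRNA genes. It also holds 276 of 612 nuclear tRNA genes (45.1%), a class not named above. Which GEI-11 sites lie at such genes was not analysed here, because the positions in that table are on another build than the peaks.

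The 10 highest-ranked sites on X lay towards its ends. Sites were ranked by the authors' score, which is a value per peak of unstated scale, and ties were ordered by the authors' peak number. All 10 shared the highest score with many other X sites, so their places rest on the peak number. The first-ranked site of X, at X:2328745-2329155, stood at rank 28 of the genome-wide list, at rank 27 in the replicate 1 list and at rank 33 in the replicate 2 list. It is also the widest site on X, at 411 bp. The second, X:16564447-16564803, had rank 53, with ranks 62 and 46 in replicates 1 and 2. Close beside it lay the sites at X:16565708-16566052 (rank 66) and X:16566339-16566623 (rank 82), so that 3 of these 10 sites sat within 2177 bp. The other sites among these 10 were X:14324323-14324637 (rank 60), X:17300664-17300997 (rank 76), X:16435520-16435784 (rank 77), X:986545-986848 (rank 79), X:15345320-15345646 (rank 80) and X:14478179-14478457 (rank 87). Of these 10 sites, 7 lie between 14 and 17 Mb and 0 lie in the middle of X. All 10 had a peak of rank 117 or better in each replicate list, with the combined and replicate midpoints at most 38.5 bp apart.

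Scores on X covered nearly the full range of the combined list. They ran from 1.73 to 3.24, and 187 of the 338 sites shared the highest score. That is 55.3% of the X sites (95% exact interval 49.9 to 60.7%), against 55.7% on the autosomes (669 of 1201) and 55.6% of all combined sites. The difference of -0.38 percentage points did not pass the test (two-sided Fisher's exact test, Benjamini-Hochberg adjusted p = 1 over the 8 main tests). Tests at other settings each took the place of their main test among the 8. Their adjusted p-values do not allow for the number of settings tried. Because so many sites tie, the order among these 187 rests on the peak number. All such tests take each site as an independent observation. Neighbouring sites are not independent, and the p-values may be too small.

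Wide sites were scarce on X. Of the X sites, 265 were 400 bp wide, the width most peaks share, 72 were narrower and 1 was wider. The share of wider sites was 0.296% on X (1 of 338, exact interval 0.00749 to 1.64%), against 3.91% on the autosomes (47 of 1201) and 3.12% in the whole list. This difference of -3.62 percentage points passed the test (two-sided Fisher's exact test, adjusted p = 0.000979). Restricted to sites at the highest score, wider ones made up 0.535% on X, against 7.03% on the autosomes (Fisher's exact test, adjusted p = 0.000878). The replicate lists gave the same direction. Among the 1539 highest-ranked peaks of each list, 0 of 342 X peaks in replicate 1 and 0 of 322 in replicate 2 exceeded that list's usual width of 396 bp, against 31 of 1175 and 30 of 1196 autosomal peaks (two-sided Fisher's exact tests, adjusted p = 0.00177 and 0.00298). By a limit of 3 counts, a count of 0 allows a share of up to 0.877% in replicate 1 and 0.932% in replicate 2.

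Narrower sites on X had a median width of 178 bp and reached down to 100 bp. They made up 21.3% of the X sites, against 17.7% of the autosomal ones and 18.5% of all sites, a difference that did not pass Fisher's exact test (adjusted p = 0.205). All 72 narrow X sites had the highest score, with ranks from 53 to 772. Of these, 71 (98.6%) were also found among the top peaks of both replicates. Narrow autosomal sites were much the same. Of 213, 210 had the highest score and 207 (97.2%) were top peaks of both replicates.

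The density of sites changed several times along X. X was taken to end at 17.72 Mb, the last base of any replicate peak on it. In windows of 500 kb, counts ran from 0 to 28 with a median of 7 over the 35 full windows. The first 500 kb held 6 sites, or 12 per Mb, of which the leftmost was at X:353168-353567. The full lists of replicates 1 and 2 had 74 and 95 peaks there, the fewest of any full window. A first rise followed from 0.5 to 3 Mb, where 65 sites gave 26 per Mb. From 3 to 13 Mb there were 96 sites, or 9.6 per Mb. The density was 21 per Mb from 13 to 14 Mb, 47 per Mb from 14 to 17 Mb (141 sites) and 12.6 per Mb beyond (9 sites). These borders were drawn after the counts were seen, so the densities are a description. The top peaks of the single replicates come from the same libraries as the combined list and are not separate evidence. They followed the same course, with 26 and 25.6 per Mb (replicates 1 and 2) from 0.5 to 3 Mb. From 3 to 13 Mb they gave 10.9 and 9.4 per Mb, and from 14 to 17 Mb 43 and 44.3 per Mb.

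**Figure D1:**
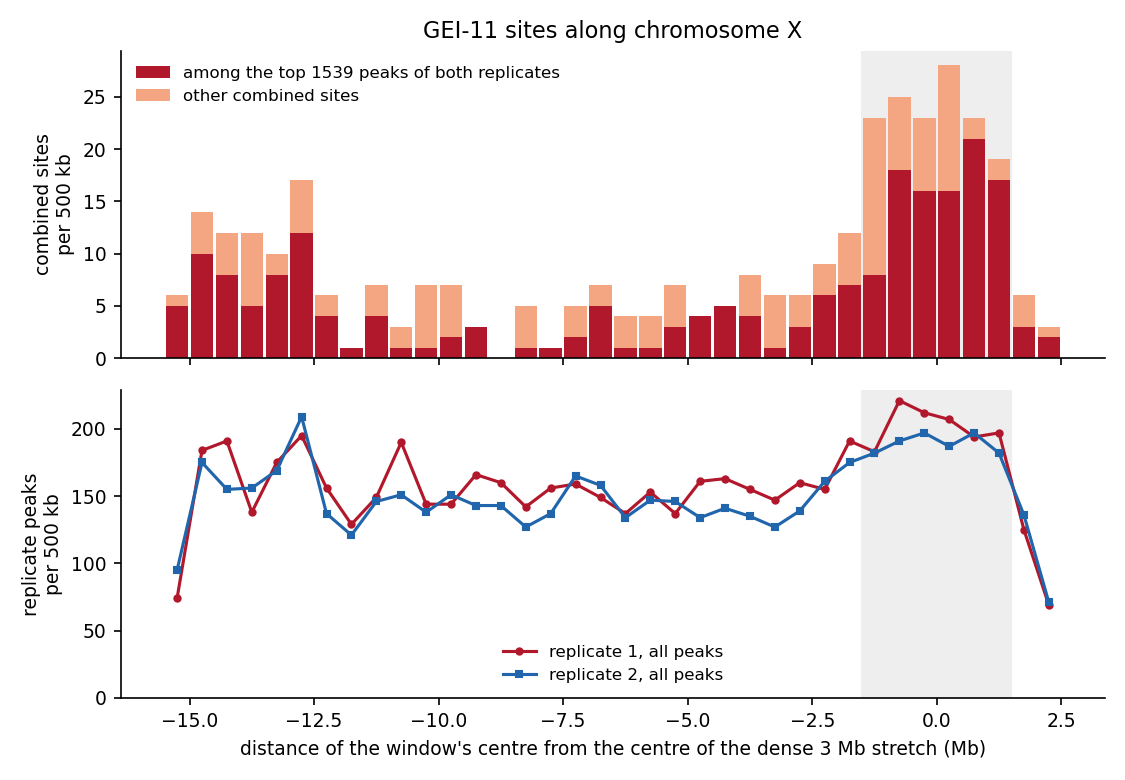
Upper panel, combined GEI-11 sites on X per 500 kb window, split by whether a site overlaps a top-1539 peak in both replicates; lower panel, all peaks of each replicate list per window. The horizontal axis is the distance of each window's centre from the centre of the dense 3 Mb stretch, shaded, and the last window is incomplete. Windows inside the stretch hold 19 to 28 combined sites and those outside 0 to 17, whereas the full replicate lists vary much less.

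The fullest window lay from 15.5 to 16 Mb with 28 sites, followed by 14.5 to 15 Mb with 25 sites. The windows starting at 14, 15 and 16 Mb held 23 each. All 6 windows of the dense stretch held at least 19 sites. The last of them, from 16.5 to 17 Mb, was the least full but had 17 of its 19 sites among the top peaks of both replicates. In the window from 14 to 14.5 Mb this was 8 of 23. The 29 other full windows had a median of 6 sites and at most 17.

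The borders of the stretch were set at round positions. The last site to the left of 14 Mb, X:13995734-13996133, had rank 1421, and the first inside, X:14008036-14008435, had rank 698. At the other border the last site inside, X:16977003-16977402, had rank 1413, and the first outside, X:17030377-17030776, had rank 1007. The site at X:17030377-17030776 was uneven between replicates, at rank 473 in replicate 1 and 8545 in replicate 2.

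Sites inside the dense stretch more often had the highest score than those elsewhere on X. Of 141 sites in the stretch 94 had the highest score (66.7%, exact interval 58.2 to 74.4%), against 93 of 197 in the rest of X (47.2%, 40.1 to 54.4%). The difference of 19.5 percentage points passed the test (two-sided Fisher's exact test, adjusted p = 0.00106). In the single replicate lists, each with its own highest score, the difference had the same direction, at 85.3% against 74.6% in replicate 1 (Fisher's exact test, adjusted p = 0.0559, which misses the threshold of 0.05) and 52.6% against 38.1% in replicate 2 (adjusted p = 0.0322). Narrow sites were also more frequent in the stretch, at 31.2% (44 of 141) against 14.2% (28 of 197), a difference of 17 percentage points (Fisher's exact test, adjusted p = 0.000979). Among sites at the highest score alone the shares were 46.8% and 30.1%, and the adjusted p of Fisher's exact test was 0.0643. The single wider site of X lies outside the stretch.

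The middle of X was sparse at the level of combined sites. When X was divided into 3 equal parts, with borders at 5.91 and 11.8 Mb, the middle part held 52 sites, or 15.4% (exact interval 11.7 to 19.7%). The left part held 101 sites and the right part 185. On the autosomes the middle part held between 26.9% of sites (II) and 35.2% (V). Density in the middle part of X was 8.81 per Mb, in the left part 17.1 per Mb and in the right part 31.3 per Mb. Of the middle sites 17 had the highest score (32.7%, exact interval 20.3 to 47.1%), against 57 of 101 in the left part and 113 of 185 in the right part. The middle sites that came first by rank were X:8703679-8703941 at rank 116, X:8741692-8741858 at rank 193, X:11093937-11094336 at rank 245, X:7005976-7006084 at rank 286 and X:10391119-10391518 at rank 353. All 52 middle sites overlapped a peak in each full replicate list, and 29 of them (55.8%) were among the top peaks of both.

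One window of the middle part, from 6.5 to 7 Mb, held 0 combined sites. The limit that a count of 0 allows is 3 sites per window, and it covers counting error only. The replicate lists were not empty there. Each had 3 of its top peaks in that window, and the full lists had 160 peaks in replicate 1 and 143 in replicate 2. Windows with 1 site lay at 3.5 to 4 Mb and at 7.5 to 8 Mb. The windows at 4.5 to 5 and at 6 to 6.5 Mb held 3 each, and all 3 from 6 to 6.5 Mb were top peaks of both replicates.

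The dense stretch and the sparse middle were features of the highest-ranked replicate peaks and faded in the weaker ones. The stretch makes up 16.9% of the length of X. It held 37.7% of the X peaks among the top 1539 of replicate 1 (exact interval 32.6 to 43.1%) and 41.3% in replicate 2 (35.9 to 46.9%). At ranks 1540 to 5000 the shares were 22.9% and 26.4%, and at ranks 5001 to 10000 they were 20.8% and 18.2%. In the weakest class, ranks 20001 to 30000, they were 20.1% (18.3 to 21.9%) in replicate 1 and 16.9% (15.2 to 18.7%) in replicate 2. The middle part of X held 17.8% and 18% of the X peaks in the top 1539, 30.9% and 27.3% at ranks 1540 to 5000, and 33.6% and 33.9% at ranks 20001 to 30000. The full lists, with 5768 and 5458 peaks on X, put 21% and 20.8% of them in the stretch and 31.5% and 30.9% in the middle part. The weakest peaks lay close to an even spread in both replicates, apart from a small surplus in the stretch in replicate 1.

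**Figure D2:**
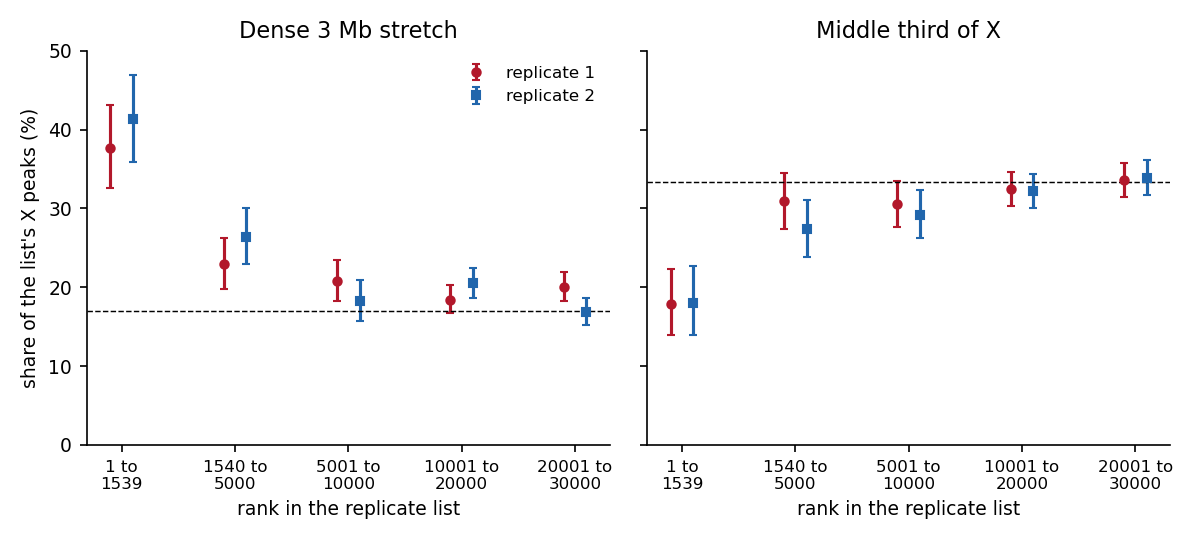
Share of each replicate list's X peaks that lie in the dense 3 Mb stretch (left) and in the middle part of X (right), by rank class in the list, with exact 95% intervals that cover counting error only. Dashed lines mark the share of the length of X. In the top class 37.7 and 41.3% of peaks lie in the stretch and 17.8 and 18% in the middle, and in the weakest class 20.1 and 16.9% and 33.6 and 33.9%.

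Spacing followed the density. The median gap between neighbouring midpoints on X was 25.7 kb, with quartiles at 9.79 and 59.1 kb. Inside the stretch the median gap was 15.5 kb (quartiles 7.15 and 30.6 kb, 140 gaps), against 40.9 kb in the rest of X (13.9 and 101 kb, 195 gaps). On single autosomes the median ran from 33 kb on II to 57.8 kb on V. Gaps over 100 kb numbered 51 on X, 1 of them inside the stretch. In the rest of X 25.6% of gaps were that long, against 23.3% on the autosomes.

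The longest empty interval on X measured 709 kb and separated X:6296492-6296891 from X:7005976-7006084. It exceeded the longest gap on any autosome, which was 647 kb on III. The next lay between X:3543244-3543643 and X:4103139-4103354 (560 kb), between X:7500919-7501318 and X:8010942-8011341 (510 kb), between X:8835833-8836232 and X:9296542-9296941 (461 kb) and between X:4711849-4712248 and X:5164957-5165356 (453 kb). All 5 fall between 3.5 and 9.5 Mb. On X, 8 gaps were over 250 kb.

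Very short gaps were few on X. Gaps under 5 kb made up 14.8% of those on X (50 of 337), with 20.7% inside the stretch (29 of 140) and 10.8% in the rest of X (21 of 195), against 17.2% on the autosomes (206 of 1196). Gaps under 1 kb numbered 7 of 337 on X and 67 of 1196 on the autosomes, and only 1 of the 7 lay in the dense stretch. Both autosomal counts include gaps between exactly repeated records, as the 1201 autosomal records hold 1194 distinct intervals. The 4 shortest, of 0.184 to 0.21 kb, were between overlapping records, at X:2362896-2363359, X:6296292-6296891, X:8741692-8742184 and X:11605640-11606238. The fifth, of 0.601 kb, was between separate sites, at X:16565708-16566052 and X:16566339-16566623. The combined list repeats no interval on X.

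**Figure D3:**
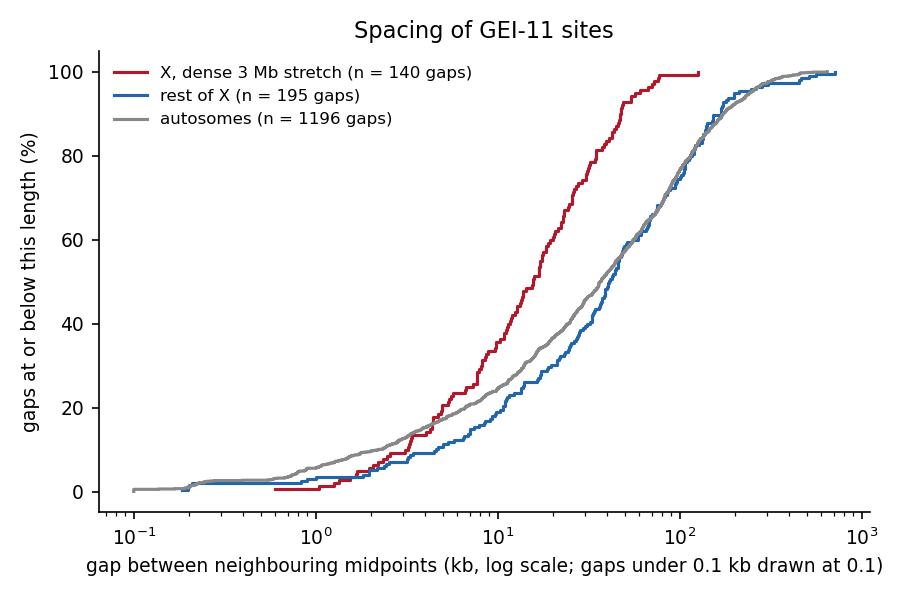
Cumulative distribution of gaps between neighbouring site midpoints in the dense 3 Mb stretch of X, in the rest of X and on the autosomes, on a log axis of kb. The curve of the stretch lies to the left over most of its range, with a median of 15.5 kb against 40.9 kb in the rest of X, while its lowest end, under 1 kb, holds a single gap.

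Merging records within 1 kb turned the 338 sites of X into 328 separate regions. Of these, 319 held 1 record, 8 held 2 and 1 held 3. The merged region with 3 records is X:16564447-16566623, which joins the sites of rank 53, 66 and 82. The stretch held 138 of the 328 regions, 46 per Mb, against 190 regions in the rest of X, 12.9 per Mb. Merging absorbed 2.96% of the records on X, against 5.65% on I, 9.49% on II, 7.24% on III, 8.05% on IV and 6.78% on V. The autosomal records absorbed include exact repeats, which X does not have. The median gap between merged regions was 26.9 kb on X and 15.9 kb in the stretch. In the stretch, merging joined 141 records into 138 regions, so few of its records adjoin each other. With a merging distance of 5 kb X had 285 regions, and the largest, 14646 bp long, held 6 records.

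Regions on X also formed chains. A cluster was defined as at least 5 merged regions with neighbouring midpoints at most 20 kb apart. X had 9 clusters holding 55 of its 328 regions (16.8%). The autosomes had 1 cluster on I (2.3% of its regions), 4 on II (10.9%), 2 on III (4.88%), 3 on IV (6.25%) and 1 on V (2.27%). All 9 clusters of X lay inside the dense stretch, where they took up 39.9% of regions, and the rest of X had 0. Since the density there was already known, this is a description and was not tested.

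The largest cluster, at X:16545547-16635061, extended over 89.5 kb and held 9 regions with 11 sites. Of the 11, 10 were top peaks of both replicates and 8 had the highest score. The exception, X:16612140-16612539, had rank 379 in replicate 2 and 10215 in replicate 1. The cluster with the next most regions, at X:15707394-15771073, had 8 sites over 63.7 kb, of which 4 were top peaks of both replicates. Its weakest member in replicate 1 was X:15724888-15725287, at rank 20472, whereas replicate 2 placed that site at 1268.

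The tightest cluster, at X:14476581-14491226, packed 6 sites into 14.6 kb with a median gap of 2.06 kb. Only 2 of its sites were top peaks in both replicates, X:14478179-14478457 and X:14481649-14481793, with combined ranks 87 and 192. Both are narrow, at 279 and 145 bp. The other 4 were 400 bp wide, with ranks from 922 to 1532. Rank 1532 was also the lowest rank of any site on X.

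The cluster at X:14661859-14715823 was the opposite case. All 5 of its sites had the highest score and were top peaks in both replicates. The remaining clusters lay at X:14101927-14139447, X:14736123-14768178, X:15070128-15112515, X:15841129-15896878 and X:16309624-16357716. They held 5 or 6 regions each over 32.1 to 55.8 kb. In the first of these 1 of 5 sites was a top peak of both replicates, in the last 5 of 6.

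**Figure D4:**
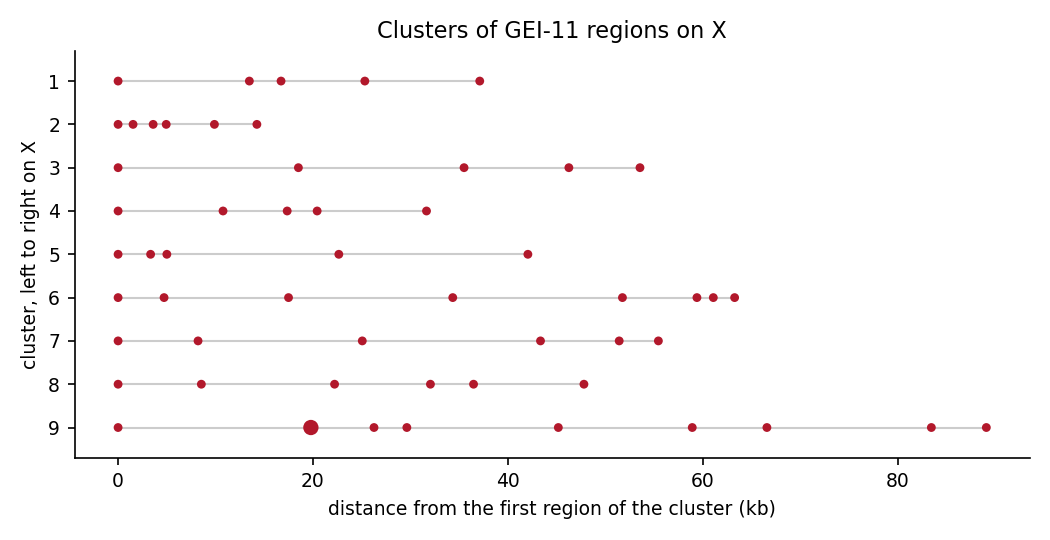
The 9 clusters of GEI-11 regions on X, 1 per row in their order along the chromosome, with each merged region drawn as a point at its distance in kb from the first region of its cluster. Point area grows with the number of records in the region, and the large point in the lowest row is the region with 3 records. The second row is the tightest, with 6 regions in 14.6 kb.

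Replicate support of the X sites was close to complete in the full lists. Of the 338 sites 335 (99.1%, exact interval 97.4 to 99.8%) shared at least 1 bp with a peak of each replicate list of 30000 peaks, and the share was also 99.1% over all combined sites. The 3 exceptions each lacked 1 replicate. X:1856206-1856605 (rank 1293) had rank 541 in replicate 1, and the nearest replicate 2 peak was 2409 bp away. X:5429312-5429711 (rank 1141) had rank 1419 in replicate 1, and the nearest replicate 2 peak was 6622 bp away. X:14490827-14491226 (rank 1524) had rank 660 in replicate 2, and the nearest replicate 1 peak was 1027 bp away. All 3 thus had a fairly strong peak in the other replicate.

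Support was stricter when only the top peaks of each replicate counted, as many as the combined list holds (1539). Then 269 X sites were supported in replicate 1 (79.6%), 267 in replicate 2 (79%) and 209 in both (61.8%, exact interval 56.4 to 67%). The last share was 57.5% on the autosomes (690 of 1201) and 58.4% over all combined sites, and the difference of 4.38 percentage points did not pass the test (Fisher's exact test, adjusted p = 0.205). A further 60 X sites were top peaks in replicate 1 only and 58 in replicate 2 only. The remaining 11 were in neither.

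Inside the dense stretch 96 of 141 sites were top peaks of both replicates (68.1%, exact interval 59.7 to 75.7%), against 113 of 197 in the rest of X (57.4%, 50.1 to 64.4%). That difference of 10.7 percentage points did not pass the test (Fisher's exact test, adjusted p = 0.107). It passed when the top 1000 peaks of each replicate were used, at 54.6% against 35% (Fisher's exact test, adjusted p = 0.000794), and not with the top 3000, at 88.7% against 80.7% (adjusted p = 0.104). With a reciprocal overlap of at least 50% required, the difference was 2.14 percentage points, at 46.8% against 44.7% (Fisher's exact test, adjusted p = 0.987). That rule cannot match a site less than 50% as wide as its replicate peak, whatever the rank of that peak. Narrow sites made up 31.2% of the stretch and 14.2% of the rest of X, so the value depends on width as well as on support. Support went with score. Among X sites at the highest score 171 of 187 (91.4%) were top peaks of both replicates, and among those below it 38 of 151 (25.2%). Score and replicate rank come from the same libraries, so this is a description. At the highest score the stretch and the rest of X had 93.6% and 89.2%.

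**Figure D5:**
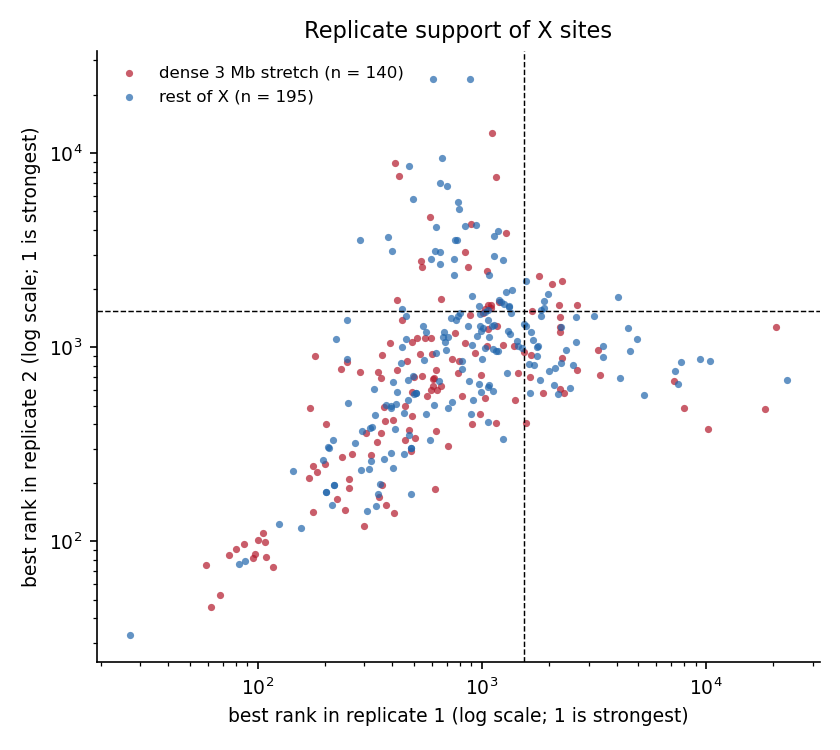
Best rank of the overlapping peak in replicate 1 and in replicate 2 for the 335 X sites found in both lists, on log axes, with dashed lines at rank 1539. Sites of low rank number lie along the diagonal, the spread widens beyond rank 1000, and few points lie beyond both lines.

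The ranks that the replicates gave to the same X site differed by a median factor of 1.61. Across the 335 sites the Spearman correlation of the 2 ranks was 0.52, with 0.61 in the stretch (140 sites) and 0.42 in the rest of X (195 sites). These sites share the same 2 libraries and were kept for their support in both, so the values are descriptions. Replicate 1 ranked 176 of the sites better and replicate 2 ranked 159 better. In the stretch the median rank was 595 in replicate 1 and 697 in replicate 2, against 803 and 951 in the rest of X. In the top 1539, 269 of 342 X peaks of replicate 1 and 142 of 322 of replicate 2 tied at the highest score of their list. The order among tied peaks rests on the peak number, which enters the correlations, the factor and the counts above. Both replicate 1 medians fall among such tied peaks. A few sites rested on a weak partner. In replicate 1, 12 X sites had only a peak ranked beyond 5000, down to 22995. In replicate 2 there were 13, down to 24210.

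Midpoints of X sites lay near those of the replicate peaks that support them. The midpoint of an X site and that of its best replicate peak lay a median of 11 bp apart in replicate 1 and 13 bp apart in replicate 2. They were within 100 bp for 94.4% and 92% of the sites. Only overlapping peaks were matched, which limits these distances by the peak widths, so they are a description. Most X sites were matched by a single replicate peak, 273 in replicate 1 and 270 in replicate 2, while 64 and 66 were overlapped by 2 or more. In each replicate 8 X sites shared their best replicate peak with another site, and 0 of these lay in the dense stretch.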

How the data were processed

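Peaks on X were taken from the combined list and from the list of each ChIP replicate. Per the file headers, the build is WormBase WS220. Each record cites SPP, a peak caller, via IDR, a filter on reproducible ranks. The deposited score of each peak is the authors' own value, of unstated scale, used here for ordering peaks inside 1 list. Not given in the sources used here are the aligner, versions, thresholds, the use of input and the making of the combined list. Read depth is unknown.

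Support means an overlap of at least 1 bp. Shares carry exact Clopper-Pearson 95% intervals, which cover counting error only. Differences in replicate support, score and width were tested with two-sided Fisher's exact tests, Benjamini-Hochberg adjusted over 8 main tests. A test at another setting was adjusted in place of its main test, without allowing for the number of settings. Positions and spacing were described without a test. Sites named follow fixed rules: highest ranks, borders, longest and shortest gaps, fullest and emptiest windows, clusters and sites lacking a replicate. Some cluster members and the segments of X were chosen after their values were seen. The members, the stretch and the lists were chosen with earlier results of these data known. Genes and sequences were not assigned, because no genome of that build was used here. The calculations were checked on simulated lists and used scipy 1.17.1, pandas 2.3.3, numpy 2.4.6 and matplotlib 3.10.9 under Python 3.11.15.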

Additional observations from a re-analysis of the deposited data

How the results depend on the processing

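Of 63 alternatives to 13 results, 48 were counted as leaving the result in place. The cause was not tested for the others. The 48 include alternatives that could not change a result. X repeats no interval, so counting repeated intervals once left all values within X identical. The 48 also include merging within 5 kb, which gave 285 regions on X in place of 328. They include reciprocal overlap for top support, where the stretch and the rest of X differed by 2.14 points in place of 10.7. Neither difference passed its test. Among sites at the highest score the stretch held 50.3% of X sites in place of 41.7%, the middle part 9.09% in place of 15.4%, and the median gap was 37.5 kb in place of 25.7 kb. It was 26.9 kb with records merged within 1 kb and 27.0 to 27.2 kb in the single replicates. The single replicates put 37.7 to 41.3% of X peaks in the stretch and 17.8 to 18% in the middle part. Reciprocal overlap of at least 50% cannot match a site less than 50% as wide as its replicate peak, so it depends on width. It lowered support in both full lists to 83.7%. It turned the difference in top support between X and the autosomes to -1.40 percentage points. It also reduced that between the stretch and the rest of X to 2.14 points. With the top 1000 peaks the stretch and the rest of X differed in top support by 19.6 points, which passed the test. In replicate 1 that cut falls among tied peaks ordered by peak number. At the 1 bp overlap and the top 1539 peaks, leaving out 1 replicate gave 99.4 to 99.7% support in the full lists. It gave differences in top support of 2.39 to 2.57 points for X against the autosomes and of 3.39 to 6.84 points for the stretch against the rest of X, none of them called. In each replicate alone the share at the highest score was higher on X than on the autosomes, by 0.621 to 5.21 points, and the share of narrow peaks differed by -2.39 to -1.0 points. None of these 4 was called. The difference in highest score between the stretch and the rest of X was 10.6 to 14.5 points and lost its call in replicate 1 alone. Narrow sites in the stretch lost theirs among sites at the highest score (16.7 points) and kept it in the single replicates (8.24 to 11.9 points). The deficit of wider peaks on X was -2.64 to -2.51 points there, and within X both shares were 0. No paired analysis was possible because input has no peak list used here. Leaving out 1 replicate for support, score and width, and the tests of support and width among sites at the highest score, were chosen after seeing the data. Read depth is unknown, so which sites it limits cannot be said.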

Other observations

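Some strong replicate peaks on X had no counterpart in the combined list. Of the 342 X peaks among the top 1539 of replicate 1, 268 (78.4%) overlapped a combined site and 74 did not. Of the 322 in replicate 2, 270 (83.9%) did and 52 did not. Of the peaks left over, 14 in each replicate lay from 14 to 17 Mb. Only 2 of those left over in either replicate overlapped a top peak of the other replicate. In all, 210 X peaks of each top list overlapped a top peak of the other, which is 61.4% of those in replicate 1 and 65.2% of those in replicate 2.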
